A study of Bos taurus with 9 samples.

Results

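The miRNAs bta-miR-423-3p, bta-miR-128, bta-miR-504, bta-miR-1306, bta-miR-1296, bta-miR-335 and bta-miR-1247-5p were chosen by name for their lower values in super-shedders. They are 7 of the 515 mature bovine miRNAs measured by small RNA sequencing in rectal tissue of 9 steers. The steers were 5 super-shedders (SS), in whose feces E. coli O157 was counted above the super-shedding level, and 4 non-shedders (NS), pen-mates that tested negative for it. All were crossbred feedlot steers on 1 finishing diet and gave 1 library each; no source used here gives their ages. Shedding was counted days before slaughter. By then only SS steer 310 had a count above that level, while the other SS were reported only as positive a day before slaughter. The biopsies held whole rectal wall, so that fewer cells of a type and less RNA per cell cannot be told apart. Values are CPM, a read-based unit scaled to the size of the library, and 245 miRNAs that reached 5 CPM in at least 4 libraries were tested. All 7 miRNAs were among them, but each met this limit through the 4 NS libraries alone, whereas only bta-miR-335, bta-miR-128 and bta-miR-423-3p reached 5 CPM in all 5 SS libraries. Since the SS minus NS difference in these same values chose the miRNAs, it is described here and not tested.

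A miRNA is made from 1 arm of an RNA hairpin, is loaded into an Argonaute protein, and represses the mRNAs that pair with a short stretch near its start, the seed. Many hairpins lie inside another gene, the host gene, and can be transcribed with it. In the gut wall, miRNAs differ strongly between smooth muscle, epithelium and leukocytes, so the levels measured in a biopsy depend on its makeup.

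The miRNAs lie in unrelated host genes. In RefSeq's cattle annotation, 8 hairpin genes matched the 7 miRNAs, and each overlapped 1 other gene. The hairpin of bta-miR-335 lies in MEST, an imprinted gene expressed from the paternal copy, and that of bta-miR-1296 in JMJD1C, which encodes a histone demethylase family protein. The hairpin of bta-miR-1306 lies in DGCR8, whose protein works with Drosha to release miRNA hairpins from their transcripts, and that of bta-miR-423-3p in NSRP1, which encodes a splicing regulator. The hairpin of bta-miR-1247-5p overlaps DIO3OS, a noncoding RNA of the imprinted DLK1-DIO3 region. Mature bta-miR-128 comes from 2 hairpins, in R3HDM1 and in ARPP21, and that of bta-miR-504 lies in the protein-coding gene LOC112445031.

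The library totals were larger in SS on average and touch every result below. They ranged from 1486495 to 6314556 reads in SS and from 650726 to 2316164 reads in NS, a 9.70-fold range over the 9 libraries. The two-sided exact permutation p was 0.0476 with the smaller tail doubled and 0.0556 by the size of the difference, so it lay on either side of 0.05. Reads outside bta-miR-143, the most abundant miRNA, did not overlap between the groups, with 1106963 to 1837388 in SS and 327590 to 904413 in NS (exact permutation p = 0.0159, or 0.00794 by the size of the difference). One read was worth 0.158 to 1.54 CPM. Markers of both layers of the labelled tissue were present. The summed level of 6 smooth muscle miRNAs was 222069 to 736839 CPM in SS and 306219 to 627891 CPM in NS, and that of 9 epithelial miRNAs was 4276 to 401685 CPM in SS and 25250 to 134093 CPM in NS.

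The most abundant of the 7 was bta-miR-423-3p, which is often used as a reference miRNA in PCR assays and which represses CDKN1A in human cells. It held 73.3% to 86.6% of the summed reads of the 7. Its level was 358, 478, 823, 366 and 214 CPM in SS steers 274, 287, 294, 299 and 310, against 1964, 878, 838 and 1400 CPM in NS steers 108, 152, 165 and 242. The groups met at SS steer 294 and NS steer 165, whose levels differed 1.02-fold. In both groups the order of the libraries was the reverse of the order of their totals: SS steer 310 and NS steer 165 had the largest totals and the lowest levels, SS steer 294 and NS steer 108 the smallest totals and the highest levels.

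Next was bta-miR-128, a brain-enriched miRNA that in mouse restrains neuronal excitability and in human glioma cells represses BMI1. It had 57.9, 106.3, 152.0, 52.6 and 27.2 CPM in SS steers 274, 287, 294, 299 and 310, against 164.4, 201.7, 173.1 and 342.4 CPM in NS steers 108, 152, 165 and 242. The SS libraries averaged 79.2 ± 49.7 CPM and the NS libraries 220.4 ± 82.9 CPM (SD, n = 5 and n = 4). SS steer 294 was again the highest SS library, 1.08-fold under the lowest NS library, which here was steer 108. Its SS libraries were the most spread of the 7 miRNAs, with a 5.58-fold range.

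The other 5 miRNAs were counted in 7 to 87 reads per library. For bta-miR-504, which represses the mRNA of p53 in human cells, levels were 4.06, 5.53, 9.42, 8.46 and 3.33 CPM in SS steers 274, 287, 294, 299 and 310, against 56.9, 17.2, 15.5 and 24.5 CPM in NS steers 108, 152, 165 and 242. NS steer 108 lay above every other library, with 37 reads. For bta-miR-335, which represses SOX4 and tenascin C in human breast cancer cells, levels were 12.6, 8.85, 10.8, 12.5 and 8.87 CPM in the same SS libraries, against 18.4, 46.7, 34.5 and 93.7 CPM in the same NS libraries. This was the most even of the 7 in SS, with a 1.43-fold range, and the most spread in NS, with a 5.08-fold range. NS steer 108, the highest library for bta-miR-504, was here the lowest NS library.

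For bta-miR-1296, which represses MCM2 in human prostate cancer cells, levels were 6.76, 5.16, 5.38, 4.70 and 1.90 CPM in SS steers 274, 287, 294, 299 and 310, against 30.7, 13.9, 12.1 and 13.4 CPM in NS steers 108, 152, 165 and 242. Apart from steer 108, the NS libraries lay within a narrow band. For bta-miR-1306 they were 4.73, 4.80, 8.07, 3.13 and 3.17 CPM in the same SS libraries, against 16.9, 9.66, 9.50 and 12.3 CPM in the same NS libraries. For bta-miR-1247-5p, which represses SOX9 in human chondrocytes, they were 5.63, 2.58, 6.73, 6.58 and 3.80 CPM in the same SS libraries, against 16.9, 11.3, 11.2 and 22.3 CPM in the same NS libraries. The lowest value, that of SS steer 287, rests on 7 reads. The means of bta-miR-1296 were 4.78 ± 1.78 CPM in SS and 17.5 ± 8.83 CPM in NS (SD, n = 5 and n = 4). Those of bta-miR-1306 were 4.78 ± 2.01 CPM in SS and 12.1 ± 3.46 CPM in NS, and those of bta-miR-1247-5p were 5.06 ± 1.81 CPM in SS and 15.4 ± 5.31 CPM in NS.

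**Figure D1:**
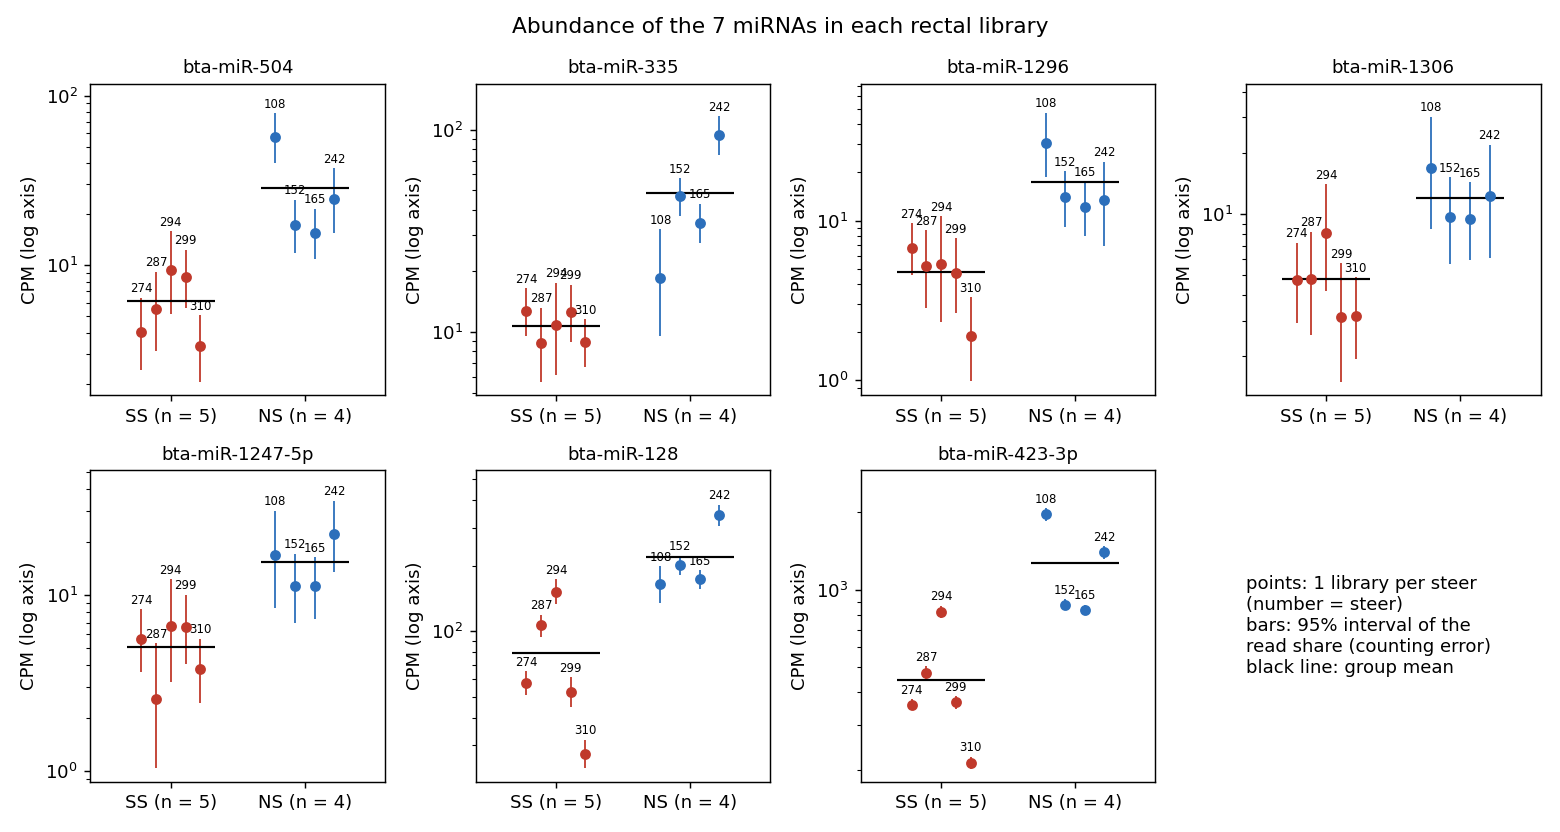
Level of each of the 7 miRNAs in CPM (log axis) in the 5 SS libraries, at left, and the 4 NS libraries, at right; points are single libraries named by steer, bars their 95% Clopper-Pearson intervals (counting error only), black lines group means. No SS point lies above an NS point, but the bars of the highest SS and the lowest NS library overlap in all 7 panels, and steer 294 is the highest SS library in 5 of the 7.

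For each of the 7, every SS library lay below every NS library, which is what they were chosen for; over the 245 tested miRNAs, the 7 included, this held for 16 (6.53%). The log2 difference on the log2(CPM + 1) scale, which understates the change of low miRNAs, was -1.93 for bta-miR-504, -1.86 for bta-miR-335, -1.65 for bta-miR-1296 and -1.64 for bta-miR-128. It was -1.55 for bta-miR-423-3p, -1.44 for bta-miR-1247-5p and -1.21 for bta-miR-1306. The median of the 7 was -1.64, beside -0.70 over the 245, of which 72 (29.4%) lay below -1 and 216 (88.2%) below 0. The highest SS library lay 1.02-fold (bta-miR-423-3p) to 1.79-fold (bta-miR-1296) under the lowest NS library. In all 7, the 95% Clopper-Pearson intervals of those 2 libraries overlapped, counting error only. The same few libraries set the edges: SS steer 294 was the highest SS library for 5 of the 7 and SS steer 274 for bta-miR-335 and bta-miR-1296, while NS steer 165 was the lowest NS library for 5 and NS steer 108 for bta-miR-335 and bta-miR-128. SS steer 294 had the smallest total in SS and NS steer 165 the largest in NS.

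In reads the groups were much closer. The whole reads behind the CPM values could be recovered for every library. Summed over the 7 miRNAs they were 1995, 1656, 1509, 1449 and 1654 reads in SS steers 274, 287, 294, 299 and 310, against 1476, 2196, 2534 and 1711 reads in NS steers 108, 152, 165 and 242. This is a 1.75-fold range over the 9 libraries, whereas the summed CPM had an 8.66-fold range, with 262 to 1015 CPM in SS and 1094 to 2268 CPM in NS. In reads not scaled to the library, 0 of the 7 miRNAs separated the groups, and over the 245 tested 0 (0%) lay lower in every SS library and 21 higher.

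The read number of bta-miR-423-3p was the most even of the 245 tested miRNAs. The ranges below span both groups and so include the difference that chose the 7. Lower CPM in SS, where totals were larger on average, by itself favours even reads. The places are therefore a description and lend no support to the choice. It was 1588, 1295, 1223, 1168 and 1349 reads in SS steers 274, 287, 294, 299 and 310, against 1278, 1636, 1941 and 1255 reads in NS steers 108, 152, 165 and 242. The 1.66-fold range of these reads was the smallest of the 245, where the median was 6.46-fold. By the same measure bta-miR-1306 (2.20-fold) was in place 5 and bta-miR-504 (2.64-fold) in place 13. Of the other 4, bta-miR-1247-5p (3.71-fold), bta-miR-128 (3.75-fold) and bta-miR-1296 (3.75-fold) were in places 40 to 42, and bta-miR-335 (7.25-fold) in place 135. The read numbers of bta-miR-335 were 16 to 56 in SS, against 12 in NS steer 108 and 80 to 87 in the other NS libraries.

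**Figure D2:**
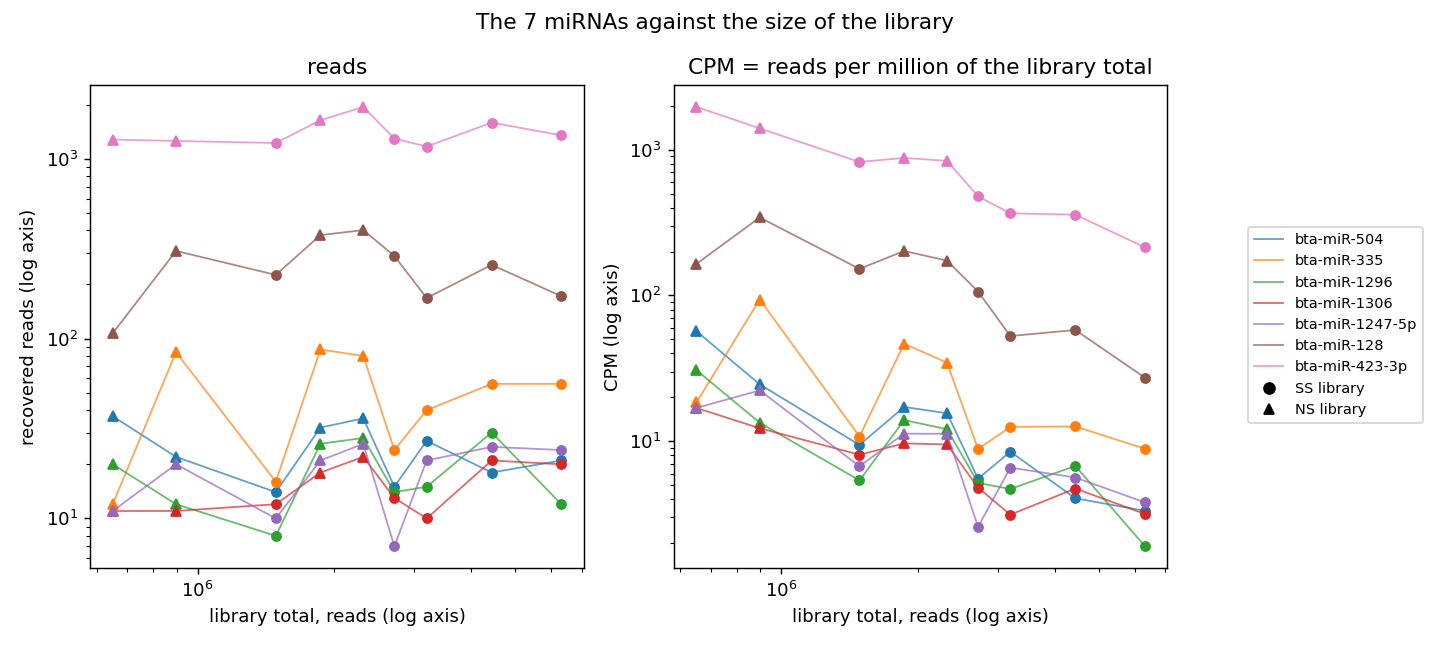
Recovered reads (left panel) and CPM (right panel) of each of the 7 miRNAs against the library total in reads (all axes log); circles are SS libraries, triangles NS libraries, and lines join the libraries of 1 miRNA. The reads of bta-miR-423-3p stay within a 1.66-fold range across a 9.70-fold range of totals, while its CPM runs downwards to the right.

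Within the groups, reads followed the total with unequal slopes. A slope of 1 on log2 scales, after the mean of each group was removed, would keep the CPM constant. It was 0.18 for bta-miR-504, 0.22 for bta-miR-423-3p, 0.33 for bta-miR-128, 0.44 for bta-miR-1296, 0.46 for bta-miR-1306, 0.62 for bta-miR-1247-5p and 1.03 for bta-miR-335. The median of the 245 was 0.35, and bta-miR-143 had 1.62. These slopes describe 9 libraries and were not tested.

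How far the groups separated depended on the scaling. With median-of-ratios factors 4 of the 7 separated (4.08% of the 245 tested), with TMM factors 4 (4.49%), and with the 10 most abundant miRNAs left out of the total 4 (2.45%). In each of these it was bta-miR-504, bta-miR-1247-5p, bta-miR-128 and bta-miR-423-3p. With bta-miR-143 left out of the total, these 4 and bta-miR-1306 separated, 5 of the 7 (7.76%). After the median of the tested miRNAs was subtracted from each library, bta-miR-504, bta-miR-128 and bta-miR-423-3p separated, 3 of the 7 (4.08%), and by rank within the library only bta-miR-504 did, 1 of the 7 (1.22%). Here and below, where the 10 most abundant were left out, the reads of bta-miR-26c were not taken off separately. Its row is nearly a copy of that of bta-miR-26a, which was taken off.

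The direction was the same under every scaling tried. The log2 differences were -1.30 to -0.60 for bta-miR-504 to bta-miR-1306 with median-of-ratios factors, under which the median of the 245 was -0.03. With TMM factors that median was -0.04, with the 10 most abundant left out -0.21, and with bta-miR-143 left out -0.48. Of the 7, bta-miR-504, bta-miR-335 and bta-miR-1296 were below -1 under all 4 of these scalings.

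**Figure D3:**
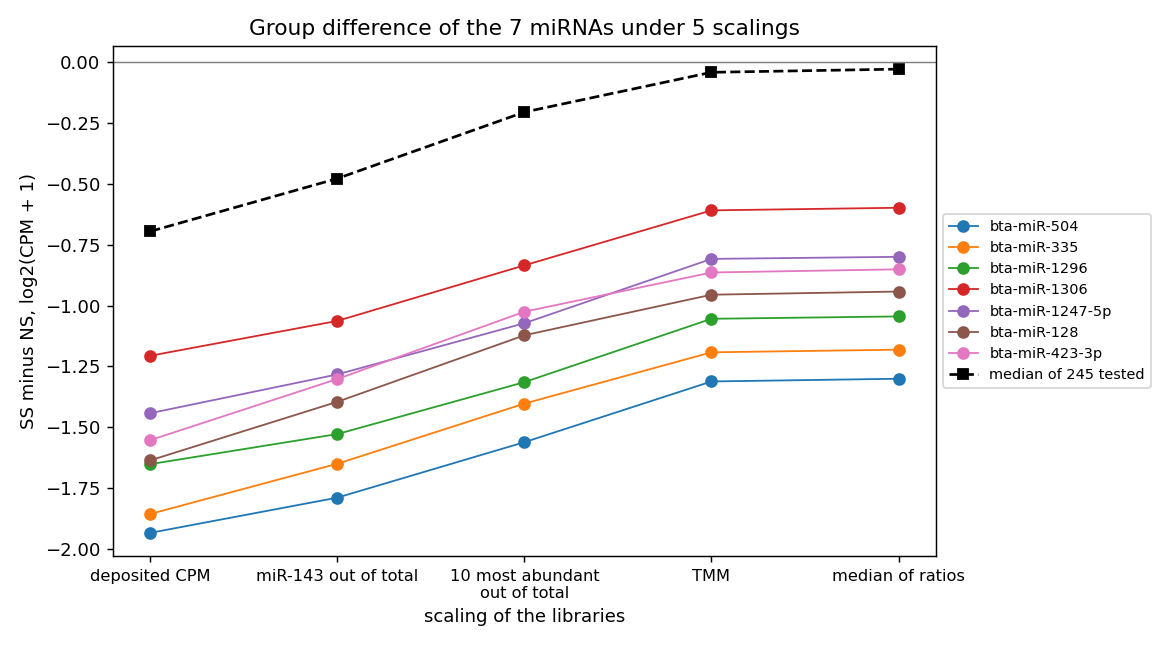
SS minus NS difference of each of the 7 miRNAs on the log2(CPM + 1) scale (vertical axis) under the deposited scaling and 4 others (horizontal axis); the dashed line is the median of the 245 tested miRNAs. The median moves from -0.70 with the deposited values to -0.03 with median-of-ratios factors, and the 7 miRNAs move with it and stay below 0.

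Correlation among the 7 was measured within the groups. The group difference that chose the miRNAs makes them correlate by itself: over the 9 libraries without removing the group means, Pearson's r of the 21 pairs was 0.63 to 0.97, with a median of 0.84. After the mean of each group was subtracted from the log2(CPM + 1) values, r was -0.36 to 0.92, with a median of 0.40, and 17 of the 21 pairs were positive (81.0%). Over all 29890 pairs of tested miRNAs the median was 0.47 and 78.6% were positive, close to the values of the 7. With the library median subtracted, a step added after seeing the data, the median r was 0.47 for the 21 pairs (81.0% positive). It was 0.04 for all pairs (52.8% positive). Values over all pairs were not computed for the other scalings. The other scalings gave fewer positive pairs among the 7: 11 of 21 with median-of-ratios factors (median r 0.31), 12 with TMM factors (0.39) and 11 with the 10 most abundant left out of the total (0.12), but again 17 with bta-miR-143 left out (0.56).

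Of the 21 pairs, 2 passed at a Benjamini-Hochberg (BH) adjusted p under 0.05, in exact permutations of the libraries within the groups. The same count was not made over all pairs of tested miRNAs, where the median r was 0.47. All CPM of a library also share its total as divisor, which the permutations do not allow for. The closest was bta-miR-423-3p with bta-miR-1306, with r = 0.92 (exact permutation p = 0.0045, BH-adjusted 0.0474) and Spearman's rho = 0.83 (exact permutation p = 0.0156). Without the 2 libraries farthest from the median of bta-miR-423-3p, SS steer 310 and NS steer 108, r was 0.89. The second was bta-miR-423-3p with bta-miR-504, with r = 0.83 (exact permutation p = 0.0045, BH-adjusted 0.0474), rho = 0.92 (exact permutation p = 0.0045), and r = 0.69 without the same 2 libraries. Neither passed when rho was used, nor under the other 4 scalings, where r was 0.70 to 0.80 for bta-miR-1306 and 0.74 to 0.84 for bta-miR-504. Both calls were also lost without SS steer 274, 294 or 310 or any single NS library (0 pairs), although with each library left out r was 0.86 to 0.98 for bta-miR-1306 and 0.81 to 0.91 for bta-miR-504; 1 pair passed without SS steer 287 and 3 without SS steer 299.

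The correlations of bta-miR-1296 with bta-miR-423-3p and bta-miR-504 rested on the same 2 libraries. With bta-miR-423-3p the r of bta-miR-1296 was 0.72 over the 9 libraries and -0.07 without SS steer 310 and NS steer 108. With bta-miR-504 it was 0.72, and -0.52 without them. Both pairs missed the threshold (exact permutation p = 0.0455 and 0.0622, BH-adjusted 0.218 each).

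With the deposited values, bta-miR-335 held all 4 negative pairs. Its r was -0.36 with bta-miR-1296, -0.35 with bta-miR-504, -0.23 with bta-miR-1306 and -0.13 with bta-miR-423-3p, and none of these passed (BH-adjusted exact permutation p of 0.586 to 0.779). With bta-miR-1247-5p and bta-miR-128 it was 0.40 and 0.37. Without NS steer 108, where bta-miR-335 had 12 reads, all 21 pairs were positive, with r of 0.26 to 0.98. Other scalings also set bta-miR-128 apart: it was negative with all 6 others under median-of-ratios factors, with 5 of the 6 under TMM factors or with the 10 most abundant left out, and with 2 with bta-miR-143 left out. In the same order bta-miR-335 was negative with 5, 4, 5 and 2 of the 6.

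Set against bta-miR-423-3p in the same library, the other 6 did not separate the groups. Since bta-miR-423-3p was itself chosen for lower values in SS, such a ratio takes out any group difference that both miRNAs share. The ratios only describe the 7 relative to each other and are no test of the group difference. The reads of bta-miR-1306 were 0.856% to 1.48% of those of bta-miR-423-3p in SS and 0.861% to 1.13% in NS, a 1.73-fold range over the 9 libraries. Those of bta-miR-504 were 1.13% to 2.31% in SS and 1.75% to 2.90% in NS, and those of bta-miR-128 were 12.8% to 22.2% in SS and 8.37% to 24.5% in NS. The widest was bta-miR-335, with 1.31% to 4.15% in SS and 0.939% to 6.69% in NS, a 7.13-fold range.

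**Figure D4:**
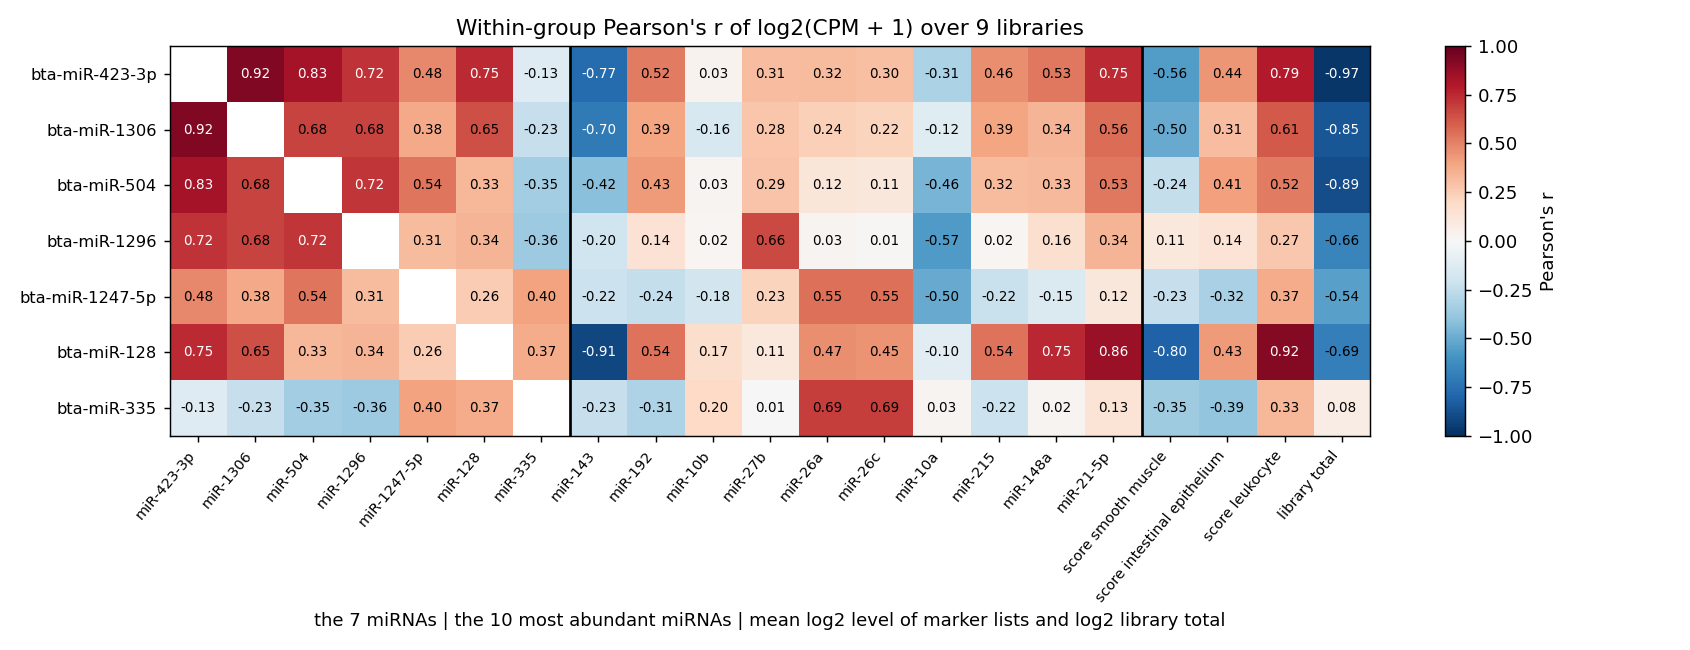
Pearson's r over 9 libraries, after the group means were removed, of the 7 miRNAs (rows) with each other, with the 10 most abundant miRNAs, and with the mean log2 level of 3 marker lists and the log2 library total (columns); red is positive and blue negative. With these deposited values the 4 negative pairs among the 7 are all in the row of bta-miR-335, and the last column is -0.97 for bta-miR-423-3p and 0.08 for bta-miR-335.

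The level of bta-miR-423-3p fell as the library total rose within the groups. The 7 miRNAs were set against the log2 total and 3 marker scores, the mean log2 level of smooth muscle, epithelial and leukocyte miRNAs, and 3 of these 28 pairs passed at a BH-adjusted p under 0.05. How many of the tested miRNAs would pass in the same way was not counted, so the 3 pairs are not read as a trait of the 7. For bta-miR-423-3p with the total, r was -0.97 (exact permutation p = 0.000347, the smallest the 2880 permutations can give, BH-adjusted 0.00972), rho was -0.98 (exact permutation p = 0.000694), and r was -0.96 without SS steer 310 and NS steer 108. For bta-miR-504 it was -0.89 (exact permutation p = 0.00243, BH-adjusted 0.0324), with rho = -0.93 (exact permutation p = 0.00347) and r = -0.83 without the same 2 libraries. The call of bta-miR-423-3p held with each library left out (r of -0.98 to -0.96), whereas that of bta-miR-504 was lost without SS steer 274, 294 or 310 or NS steer 152, 165 or 242, at r of -0.93 to -0.86 (BH-adjusted exact permutation p of 0.0162 to 0.162 over all 9). Next was bta-miR-1306, with r = -0.85 (BH-adjusted exact permutation p = 0.0681).

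A CPM has the total as its divisor, so a miRNA with even read numbers falls with the total by arithmetic. The permutation p of a pair with the total does not allow for this. Most tested miRNAs ran the same way. The median r with the total over the 245 was -0.63, and 11.4% were positive. From the most negative, bta-miR-423-3p was in place 2, bta-miR-504 in place 13 and bta-miR-1306 in place 24. The r of bta-miR-128 was -0.69, that of bta-miR-1296 -0.66 and that of bta-miR-1247-5p -0.54, near the median. Only bta-miR-335 was above 0 (0.08, place 223). Under the other 4 scalings none of the 28 pairs passed; r with the total was -0.61 to -0.33 for bta-miR-423-3p, -0.42 to -0.25 for bta-miR-504 and 0.63 to 0.74 for bta-miR-335.

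The third pair that passed was bta-miR-128 with the leukocyte score, which averages bta-miR-142-3p, bta-miR-142-5p, bta-miR-150, bta-miR-155, bta-miR-223 and bta-miR-342. Its r was 0.92 (exact permutation p = 0.00347, BH-adjusted 0.0324), rho 0.73 (exact permutation p = 0.0618), and r without SS steer 310 and NS steer 242 was 0.86. It passed without SS steer 299 or NS steer 108 but was lost without any of the other 7 libraries, at r of 0.87 to 0.96 (BH-adjusted exact permutation p of 0.0292 to 0.169 over all 9). The median over the 245 was 0.75, and under the other scalings bta-miR-128 was at 0.43 to 0.66. The summed leukocyte miRNAs were 456 to 16502 CPM in SS and 3451 to 42682 CPM in NS. All 6 were lower in SS on average (median log2 difference -1.53), as were 216 of the 245 tested miRNAs (88.2%, median -0.70 over the 245). None of the 6 was called by limma (0 of 245 tested, 0%), and no marker of the list was at 0 throughout a group. The part of leukocytes in the difference of bta-miR-128 was not tested.

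With the 10 most abundant miRNAs, none of the 70 pairs passed (smallest BH-adjusted exact permutation p = 0.389), and 4 had an exact permutation p under 0.05. All 7 were negatively correlated with bta-miR-143, a smooth muscle miRNA that took 22.1% to 73.1% of a library in SS and 30.4% to 62.5% in NS. The strongest was bta-miR-128, with r = -0.91 (exact permutation p = 0.00556, BH-adjusted 0.389), rho = -0.72, and r = -0.79 without SS steer 294 and NS steer 242. Next was bta-miR-423-3p, with r = -0.77 (exact permutation p = 0.0160, BH-adjusted 0.470) and rho = -0.75. The others were at -0.70 for bta-miR-1306, -0.42 for bta-miR-504, -0.23 for bta-miR-335, -0.22 for bta-miR-1247-5p and -0.20 for bta-miR-1296. Over the other 244 tested miRNAs the median was -0.70 and 12.3% were positive, and these last 4 were less negative than that. The sign changed with the scaling: under the other 4 scalings r with bta-miR-143 was positive for these 4 and bta-miR-1306, -0.23 to 0.21 for bta-miR-423-3p and -0.61 to -0.33 for bta-miR-128.

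With the deposited values, all 7 were positively correlated with bta-miR-21-5p, a miRNA of activated and inflamed tissue. The r was 0.86 for bta-miR-128 (exact permutation p = 0.0201, BH-adjusted 0.470) and 0.75 for bta-miR-423-3p (exact permutation p = 0.0313, BH-adjusted 0.547), beside a median of 0.68 over the tested miRNAs. The other 5 were at 0.12 to 0.56. Under the other 4 scalings r was negative throughout for bta-miR-1247-5p (-0.75 to -0.57), bta-miR-1306 (-0.63 to -0.24), bta-miR-335 (-0.57 to -0.45) and bta-miR-1296 (-0.37 to -0.14). It was -0.20 to 0.24 for bta-miR-423-3p and -0.13 to 0.07 for bta-miR-504, and only bta-miR-128 stayed positive (0.27 to 0.64). With bta-miR-192, the leading miRNA of intestinal epithelium, bta-miR-335 and bta-miR-1247-5p were at -0.31 and -0.24, and the other 5 at 0.14 to 0.54; under the other 4 scalings 0 to 4 of the 7 were positive with it. The same 2 had the highest r with bta-miR-26a, 0.69 for bta-miR-335 and 0.55 for bta-miR-1247-5p. For bta-miR-335 this was -0.46 without NS steers 165 and 242, and for bta-miR-1247-5p 0.14. Values for bta-miR-26c were nearly the same, since its row is nearly a copy of that of bta-miR-26a. With bta-miR-148a, bta-miR-215, bta-miR-27b, bta-miR-10a and bta-miR-10b, r was -0.57 to 0.75, and no pair had an exact permutation p under 0.05.

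The other arms of 2 hairpins were in the table. The other arm of bta-miR-423-3p, bta-miR-423-5p, had 27.3, 152.7, 137.9, 37.6 and 14.3 CPM in SS steers 274, 287, 294, 299 and 310, against 493, 39.7, 55.3 and 525 CPM in NS steers 108, 152, 165 and 242. These groups overlapped, since SS steers 287 and 294 lay above NS steers 152 and 165. Between SS and NS its log2 difference was -1.61, with a standard error of 0.96 and an adjusted p of 0.358 in limma. There were 13.1, 3.13, 5.97, 9.73 and 15.0 reads of the 3p arm for each read of the 5p arm in the same SS libraries, against 3.98, 22.1, 15.2 and 2.66 in the same NS libraries. The 2 arms correlated within the groups with r = 0.88 (exact permutation p = 0.00729, not adjusted), rho = 0.80 (exact permutation p = 0.0201), r = 0.88 without NS steers 108 and 242, and r = 0.23 with the library median subtracted. The other arm of bta-miR-1247-5p, bta-miR-1247-3p, had 1 read each in SS steer 287, SS steer 299 and NS steer 165 and 0 elsewhere, where 0 allows up to 3 reads, or 0.475 to 4.61 CPM.

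The miRNAs closest to each of the 7, by within-group r over the 9 libraries, are given as a description. For bta-miR-504 they were bta-miR-1343-3p (0.89), bta-miR-296-3p (0.86) and bta-miR-92b (0.82). For bta-miR-335 they were bta-miR-218 (0.87), bta-miR-98 (0.85) and bta-miR-451 (0.85), a miRNA of erythrocytes. Those of bta-miR-1296 were bta-miR-139 (0.90), bta-miR-197 (0.75) and bta-miR-28 (0.75). Both bta-miR-1306 and bta-miR-423-3p were closest to bta-miR-1842 (0.90 and 0.97), followed by bta-miR-484 (0.85 and 0.96). The third place was held by bta-miR-328 (0.85) for bta-miR-1306 and by bta-miR-769 (0.95) for bta-miR-423-3p. Those of bta-miR-1247-5p were bta-miR-2285o (0.92), bta-miR-1468 (0.91) and bta-miR-6123 (0.83), and those of bta-miR-128 were bta-miR-2336 (0.98), bta-miR-186 (0.97) and bta-miR-29a (0.95). With the library median subtracted, the r of bta-miR-1306 with bta-miR-1842 was 0.22, while that of bta-miR-1296 with bta-miR-139 was 0.94 and that of bta-miR-1247-5p with bta-miR-2285o 0.93.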

How the data were processed

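Small RNA libraries of rectal tissue from 9 steers (Illumina TruSeq, 1 per steer) were sequenced. The authors assigned the reads to miRBase with the sRNA toolbox (Bowtie, versions not given in the sources used here) and tested them with edgeR. The deposited values, called CPM or RPM by the authors, are recorded as a read-based signal, because columns sum to 1024945 to 1089433. All values (100%) were whole multiples of 1 step per library (tolerance 1e-06 reads), which gave reads and totals; the total is this scaling denominator, which need not equal the reads sequenced. All 9 columns were used. No label names a batch.

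Members and marker lists were chosen with earlier results of these data known. Values were taken as log2(CPM + 1) and compared with limma 3.58.1 (R 4.3.3, trended prior, BH), with calls where the adjusted p was below 0.1 and the log2 difference exceeded 1 in either direction. Differences are SS minus NS. The miRNAs named are the 7, the 10 most abundant, other arms, and the 3 tested miRNAs closest to each by within-group r. Correlations and their exact permutations were computed with numpy 2.4.6, with ranks from scipy 1.17.1, and adjusted over 21, 70 and 28 pairs. Alternatives were pseudocounts of 0.5 and 5, no filter, other scalings, edgeR 4.0.16 and DESeq2 1.42.0 on recovered reads, Spearman's rho and leaving out each library; unscaled reads, ranks and subtracting the library median were added after seeing the data. Marker lists of neurons (4 tested), erythrocytes (2) and endothelium (2) had median log2 differences of -0.51, -0.42 and -0.45, and smooth muscle (6) and epithelium (9) 0.17 and -0.84. Host genes come from RefSeq ARS-UCD2.0, names only. Both procedures were tested on simulated data.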

Additional observations from a re-analysis of the deposited data

Results flagged for a closer look

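Among 22 groups of values examined, 1 library lay far from the rest of its group, where chance gives about 1 in 20. It was bta-miR-1296 in NS steer 108, with 30.7 CPM, while the remaining NS steers had 12.1 to 13.9 CPM. The value rests on 20 reads in the smallest library, with a 95% Clopper-Pearson interval of 18.8 to 47.5 CPM.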

How the results depend on the processing

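The log2 differences of the 7 miRNAs stayed below 0 under every alternative. They were lowest for bta-miR-504, at -2.02 to -1.30, and highest for bta-miR-1306, at -1.29 to -0.60; with each library left out these 2 were at -2.15 to -1.55 and -1.38 to -1.04. Of these values, 17 moved by more than the spread between replicates. Separation of the groups held for 4 of the 7 with median-of-ratios or TMM factors or the 10 most abundant left out, and, in alternatives chosen after seeing the data, for 3 with the library median subtracted, 1 by rank and 0 in unscaled reads. Over all miRNAs, limma called 0 of 245 (1 higher and 39 lower in SS when p was below 0.05 without adjustment) and 0 with each library left out, edgeR's quasi-likelihood test 0 (14 higher and 12 lower by the same unadjusted p), edgeR's exact test 1, DESeq2 9 (6 higher and 3 lower), and limma without the filter 1 of 515. The pairs that passed among the 7 numbered 2, but 0 under each of the 4 other scalings and with rho, and 0 to 3 with a library left out. The pairs with the scores and the total numbered 3, but 0 under each of those scalings and 1 to 5 with a library left out: 5 without NS steer 108, and 1 without SS steer 274, 294 or 310 or NS steer 152 or 165. None of the 70 pairs with the abundant miRNAs passed under any alternative that gives a p. The pairs that passed were not counted over all tested miRNAs. The causes were not tested. No paired analysis was possible because the groups share no steer number. The 5 low miRNAs rest on 7 to 87 reads, and intervals cover only counting error, as no molecular identifiers were used.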
